A study of Mus musculus with 10 samples.

Results

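The regions described here are the 1303 of 32293 regions in the deposited H3K4me3 table at which no H3K4me3 read was counted in WT, WWD or R cells. They make up 4.03% of that table and were chosen by their H3K4me3 values, so their lack of H3K4me3 reads is the rule and not a finding. The Dnmt3a2 columns of the same table took no part in the choice. The series is a ChIP-seq study, in which chromatin bound by an antibody is sequenced, of Dnmt TKO cells of the mouse embryonic stem cell line J1. In TKO cells the Dnmt genes are knocked out, and all cells used here expressed a Dnmt3a2 construct: WT Dnmt3a2, WWD Dnmt3a2 or R Dnmt3a2. The series title names an engineered histone-recognition domain, and the labels do not say what the changes in WWD and R are, nor what drives the constructs. Dnmt3a2 was pulled down with a FLAG antibody and H3K4me3 with its own antibody, at passages 7 to 10. The labels list 6 Dnmt3a2 samples (2 per construct, 1 from a line numbered 1 and 1 labelled bulk), 3 H3K4me3 samples (1 per construct, all line 1) and 1 input, which was not used here.

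Dnmt3a is a de novo DNA methyltransferase, and Dnmt3a2 is its shorter isoform, which is prominent in embryonic stem cells. Its ADD domain binds the tail of histone H3 when lysine 4 is unmethylated, and methylation of that lysine weakens the binding. H3K4me3 is typical of active and poised promoters, H3K4me1 of enhancers, and H3K4me2 of both. Regions with no detected H3K4me3 serve here as a reference for the 3 forms of the enzyme.

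Each table held 1 Dnmt3a2 column per construct, which may hold more than 1 of the listed samples. There is thus no replicate check, no test over samples was possible, and every comparison below is a description of these columns. Library totals in the headers were 24015095 (WT), 17259400 (WWD) and 25254320 (R) for Dnmt3a2, and 18801269, 26012284 and 27424019 in the same order for H3K4me3. Signal is given as the mean number of reads per 100 bp region per 10000000 reads of the library total. Intervals are 95% intervals. Those of shares are exact Clopper-Pearson intervals, and those of ratios are exact counting intervals unless they are named as intervals over regions, which use the spread between regions. For the factor between a ratio at marked and at empty regions, the counting interval is an approximation on the log scale. All of them cover counting or regional variation only, not variation between cultures, and PCR reads are not independent molecules.

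The H3K4me3 columns differed in how many regions they left empty. WT had 2616 regions at 0 reads, and 49.8% of these were also empty in WWD and R. WWD had 3849, of which 33.9% were empty in all 3, and R had 5791, of which 22.5% were. These shares follow from the number of zeros in each column, since the shared regions are the same 1303. A count of 0 allows up to 3 reads, which is 1.60 reads per 10000000 for WT, 1.15 for WWD and 1.09 for R. By contrast, the 24866 regions with at least 1 H3K4me3 read in every column, called marked here, had medians of 61 (WT), 75 (WWD) and 73 (R) reads. The remaining 6124 regions were empty in 1 or 2 columns. Just outside the rule lay 243 regions with exactly 1 H3K4me3 read in the 3 columns together and 226 with 2. Just inside it, 51 empty regions had a deposited value so near the limit of 1 read that rounding to 2 decimals could hide a read.

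Dnmt3a2 was counted at a minority of the empty regions in each construct, most often in WWD. A WT read was present at 197 of the 1303 empty regions, or 15.1% (interval 13.2 to 17.2), where the whole table had 9.89%. WWD reads were present at 374, or 28.7% (26.3 to 31.2), against 25.5% of the table. R reads were present at 167, or 12.8% (11.05 to 14.8), against 9.79% of the table. The WT and R intervals lay above the share of the table, and the WWD interval lay above it by a smaller margin. Mean signal at the empty regions was 0.289 ± 0.0251 for WT, 0.590 ± 0.0349 for WWD and 0.256 ± 0.0235 for R (SE over 1303 regions).

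The reads were spread unevenly over the empty regions. Of the 197 regions with a WT read, 44 held 1 read, 20 held 2, 21 held 3, 32 held 4 and 17 held 10 or more. WWD had 100 regions at 1 read, 61 at 2, 67 at 3, 40 at 4 and 14 at 10 or more. R had 32 at 1 read, 18 at 2, 17 at 3, 20 at 4 and 21 at 10 or more. A region with a read thus held 4.59 reads on average in WT, 5.04 in R and 3.55 in WWD. The 14 most heavily read empty regions of each library held 21.9% of the 904 WT reads, 22.4% of the 841 R reads and 13.0% of the 1326 WWD reads. WWD reads were spread over more empty regions than those of WT and R. The lower count at each is in raw reads, and the WWD library was the smallest, with 17259400 reads. It thus does not show less WWD signal at a region with a read. Over the whole table, too, the raw count at a region with a read was lowest in WWD, with 4.24 (WT), 4.81 (R) and 3.31 (WWD) reads on average. There, 221 (WT), 233 (WWD) and 361 (R) of the 32293 regions held 10 or more reads.

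**Figure D1:**
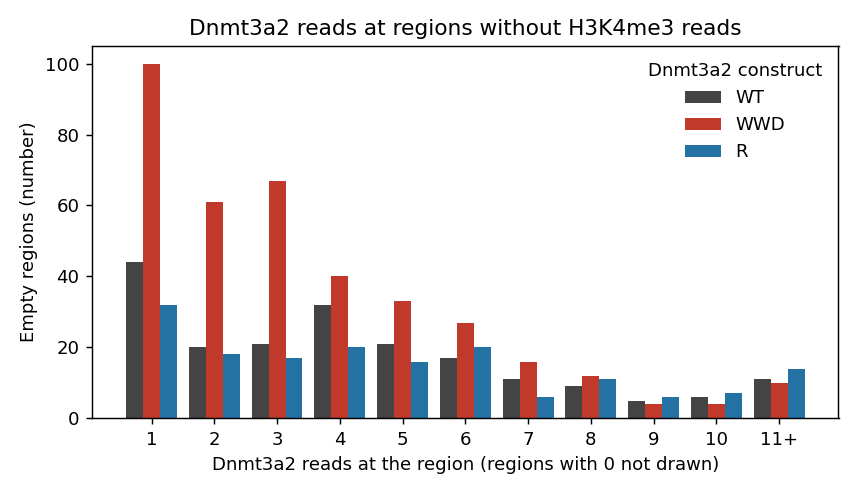
Number of empty regions (vertical axis) by the Dnmt3a2 reads they held (horizontal axis), for WT, WWD and R; the regions with 0 reads are not drawn. WWD has the most regions at 1 to 3 reads (100, 61 and 67), while at 11 or more reads, the last bin, the constructs have 11 (WT), 10 (WWD) and 14 (R) regions. Reads are raw counts, not scaled to the library totals.

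Over all regions, each of the 3 forms of Dnmt3a2 had more signal at empty than at marked regions, and the ratio was highest in WT. WT signal was 0.289 at empty and 0.151 at marked regions, a ratio of 1.91 (1.79 to 2.05; over regions 1.60 to 2.29). R signal was 0.256 and 0.170, a ratio of 1.505 (1.40 to 1.61; over regions 1.25 to 1.81). WWD signal was 0.590 and 0.452, a ratio of 1.30 (1.23 to 1.38; over regions 1.16 to 1.47). The interval over regions of WT overlapped that of R and not that of WWD. The shares of regions with a read gave the same order, and they are not moved by heavily read regions. The share at empty over marked regions was 1.74 for WT (over regions 1.52 to 1.99), 1.43 for R (1.24 to 1.66) and 1.18 for WWD (1.08 to 1.29). When only regions with a read in at least 2 Dnmt3a2 columns were kept, which left 147 empty regions, the ratios of signal were 1.30 for WT (1.18 to 1.43), 1.09 for WWD (0.990 to 1.20) and 1.002 for R (0.906 to 1.11). The counting intervals of WWD and R then included 1. Intervals over regions were not computed for this subset. It was chosen by the same Dnmt3a2 reads and leaves out regions read in 1 library or none. Its ratios are thus not a check of those over all regions.

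The empty regions did not stand apart from regions with few H3K4me3 reads. With H3K4me3 reads summed over the 3 columns, a WT Dnmt3a2 read was present at 15.1% of empty regions, 13.9% of the 469 regions with 1 to 2 reads, 15.8% of the 1210 with 3 to 9 and 14.4% of the 2866 with 10 to 29. It was present at 11.2% of the 6826 regions with 30 to 99 reads and 7.97% of the 19619 with 100 or more. R behaved alike, with 12.8% at empty regions, 12.9% at 10 to 29 reads and 8.58% at 100 or more. For WWD the shares were 28.7% at empty regions, 31.3% at 1 to 2 reads, 28.1% at 10 to 29 and 23.9% at 100 or more. In each construct the intervals of the first 4 classes overlapped, and the lowest share was in the class with the most H3K4me3. At the 243 regions with exactly 1 H3K4me3 read the shares were 14.8% for WT (10.6 to 19.9), 31.3% for WWD (25.5 to 37.5) and 11.1% for R (7.45 to 15.8), which all include the value of the empty regions.

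**Figure D2:**
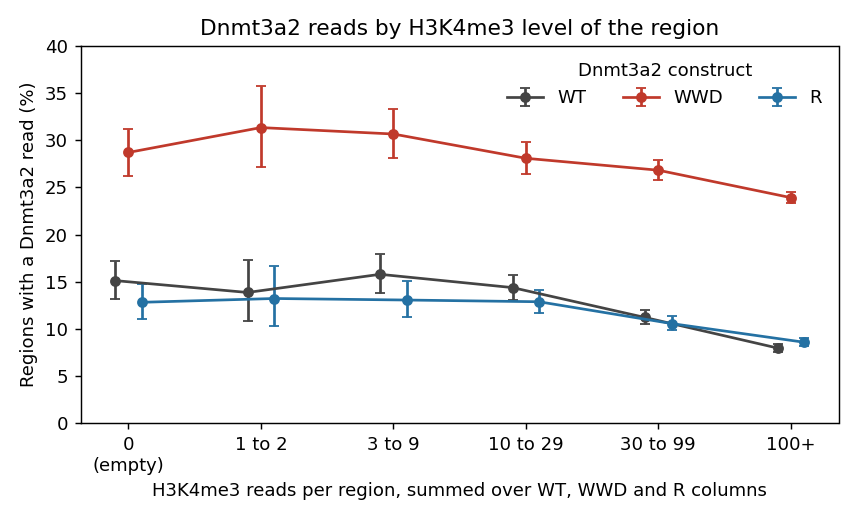
Share of regions with at least 1 Dnmt3a2 read (vertical axis, percent) by the region's H3K4me3 reads summed over 3 columns (horizontal axis), for WT, WWD and R; bars are exact 95% intervals over regions. The shares at empty regions (15.1%, 28.7% and 12.8%) lie near those at 10 to 29 reads (14.4%, 28.1% and 12.9%), and all 3 constructs are lowest at 100 or more reads.

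At the empty regions WWD had more signal than WT per library total, by less than at marked regions. WWD over WT was 2.04 at empty regions (1.87 to 2.22; over regions 1.67 to 2.49) and 2.996 at marked regions (2.92 to 3.07). The ratio at marked regions was thus 1.47 times that at empty regions (1.34 to 1.60, and 1.19 to 1.81 over regions). This factor is the WT ratio of empty over marked signal, given above, divided by that of WWD. Such factors, here and below and also those from shares, restate the empty over marked ratios and are not separate results. The ratio of the shares with a read was 1.90 at empty and 2.81 at marked regions, a difference of 1.48 times (over regions 1.27 to 1.72). The level of 2.04 at empty regions depended on the scaling of the libraries. When each library was scaled to its reads within the 3 tables in place of its total, WWD over WT at empty regions was 1.01 (0.927 to 1.10). The factor of 1.47 between marked and empty regions does not depend on this scaling, because the totals cancel in it. WWD over R was 2.31 at empty regions (over regions 1.89 to 2.82) and 2.66 at marked regions, and the factor between them was 1.15, with an interval over regions that included 1 (0.936 to 1.42). Scaled to the reads within the 3 tables, WWD over R at empty regions was 1.12 (1.03 to 1.22).

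R and WT could not be told apart at empty regions once the spread between regions was counted. R over WT was 0.885 there (0.804 to 0.973; over regions 0.693 to 1.13) and 1.13 at marked regions (over regions 1.05 to 1.21). The ratio at marked regions was 1.27 times that at empty regions (1.15 to 1.40), and the interval over regions included 1 (0.987 to 1.64). By shares with a read, R over WT was 0.848 at empty regions (over regions 0.703 to 1.02) and 1.03 at marked regions.

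**Figure D3:**
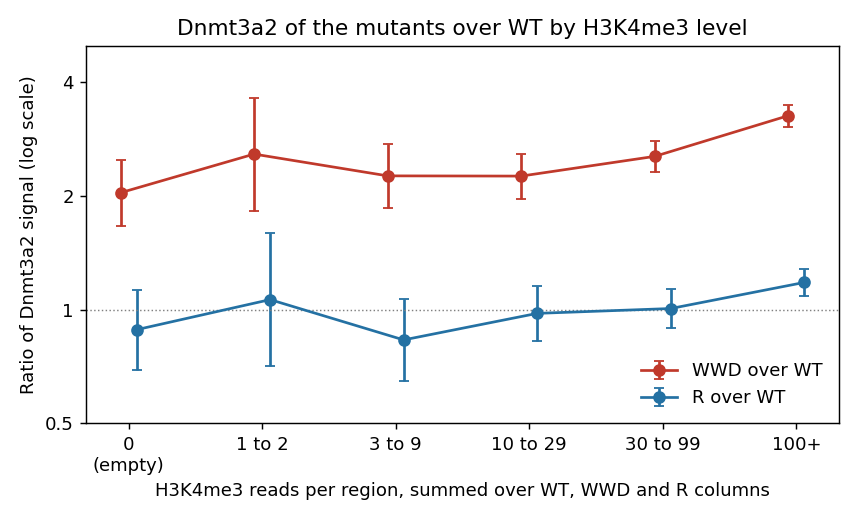
Ratio of Dnmt3a2 signal, WWD over WT and R over WT (vertical axis, log scale), by the region's H3K4me3 reads summed over 3 columns (horizontal axis); bars are 95% intervals from the spread over regions and the dotted line is a ratio of 1. WWD over WT is 2.04 at empty regions and 3.27 at 100 or more reads, and R over WT is 0.885 and 1.18.

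The classes between these ends did not form an even series. WWD over WT was 2.58 at 1 to 2 H3K4me3 reads (over regions 1.83 to 3.65), 2.26 at 3 to 9 reads, 2.26 at 10 to 29 reads, 2.55 at 30 to 99 reads and 3.27 at 100 or more (3.05 to 3.49). Only the class of 100 or more reads had an interval over regions wholly above that of the empty regions, 1.67 to 2.49. R over WT was 0.831 at 3 to 9 reads, 0.977 at 10 to 29 reads and 1.18 at 100 or more (1.09 to 1.28).

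Set against the other tables, Dnmt3a2 at the empty regions was nearer to that at H3K4me2 regions than to that at H3K4me1 regions. Signal over the 29023 regions of the H3K4me2 table was 0.296 (WT), 0.540 (WWD) and 0.314 (R). The H3K4me2 regions with no H3K4me3 region within 500 bp had more WT and R signal than the empty regions, with 0.376 (WT), 0.621 (WWD) and 0.384 (R). H3K4me1 regions had more in every construct, with 0.477 (WT), 0.853 (WWD) and 0.420 (R). WWD over WT was 1.82 at H3K4me2 and 1.79 at H3K4me1 regions (over regions 1.75 to 1.90 and 1.63 to 1.96), and both intervals overlapped that of the empty regions. The input library was not used here, so none of these levels shows whether Dnmt3a2 was enriched.

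The empty regions lay apart from other listed regions. Of the 1303, 869 had no other region of the 3 tables within 500 bp, or 66.7% (64.1 to 69.2), against 26.1% of marked regions (25.6 to 26.7). An H3K4me2 region lay within 500 bp of 14.9% of empty regions (13.0 to 16.9) and of 52.0% of marked regions. An H3K4me1 region lay that near to 5.53% of empty regions (4.35 to 6.91) and to 2.27% of marked regions (2.09 to 2.46). The empty regions thus had fewer H3K4me2 neighbours and, at this distance, more H3K4me1 neighbours than marked regions. The partly empty regions lay between for isolation, with no region within 500 bp for 49.9% (48.7 to 51.2), and for H3K4me2 neighbours, with 33.3% (32.2 to 34.5). Their share with an H3K4me1 neighbour was 5.18% (4.63 to 5.76), an interval that overlapped that of the empty regions. Within 2000 bp the share with an H3K4me1 neighbour was 15.8% for empty and 16.5% for marked regions. The median distance to the nearest other marked region was 29029 bp from empty regions and 642 bp from marked regions. Marked regions were defined by the same H3K4me3 columns as the rule, so these distances are not independent of the choice of regions.

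Empty regions that did have an H3K4me3-table neighbour were often beside another empty one. Another region of the H3K4me3 table lay within 500 bp of 220 empty regions. The nearest was itself empty for 98 of them, or 44.5% (37.9 to 51.4), partly empty for 80 and marked for 42, or 19.1% (14.1 to 24.9). Among the 11108 marked regions with such a neighbour, it was empty for 40 and marked for 10227, or 92.1%. Regions within 500 bp can share fragments, since chromatin was cut to 160 to 480 bp per the labels' protocols. The neighbour's state was read from the same H3K4me3 columns as the rule, so this likeness is not an independent finding. Empty regions nearest to each other were counted from both sides, which the intervals do not allow for.

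**Figure D4:**
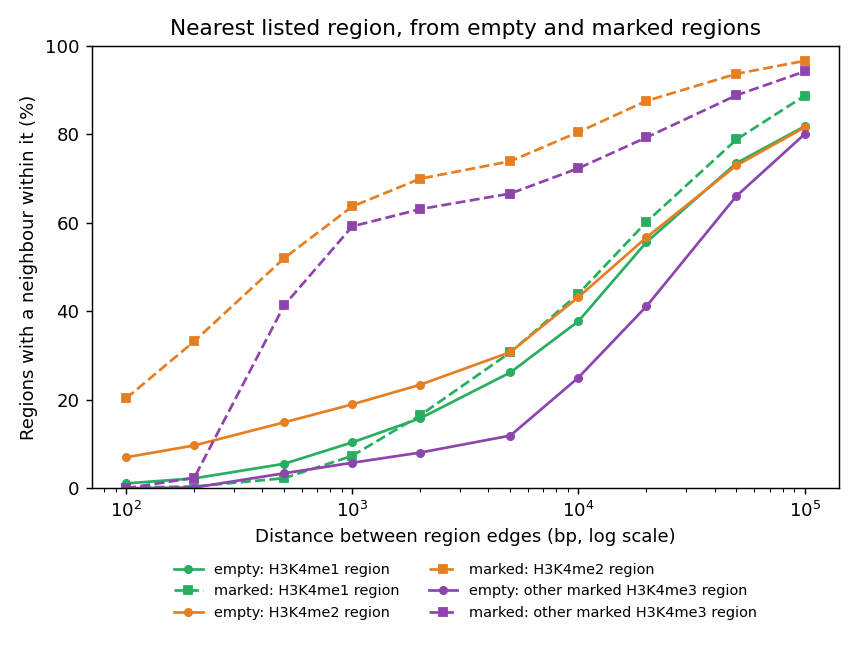
Share of regions (vertical axis, percent) with a neighbour within a given distance (horizontal axis, bp, log scale), from empty regions (solid lines, circles) and marked regions (dashed lines, squares), for 3 kinds of neighbour. Within 500 bp, 14.9% of empty and 52.0% of marked regions have an H3K4me2 neighbour, and 3.38% and 41.3% have another marked H3K4me3 neighbour. The lines for marked neighbours are not independent of the rule, which used the same H3K4me3 columns.

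Since empty and marked regions differed in their neighbours, Dnmt3a2 was also compared within like surroundings. Among regions with no region nearby, empty over marked signal was 1.70 for WT (over regions 1.34 to 2.14), 1.34 for R (1.06 to 1.70) and 1.11 for WWD, whose interval over regions included 1 (0.949 to 1.30). At these regions a WT read was present at 15.7% of empty and 9.83% of marked regions, and a WWD read at 28.4% and 25.9%. Beside an H3K4me2 region but no H3K4me1 region, where 180 empty regions lay, the ratio was 2.39 for WT (over regions 1.56 to 3.67), 1.96 for R (1.26 to 3.06) and 1.26 for WWD (0.936 to 1.70). Beside an H3K4me3 region only (182 empty regions) it was 1.47 for WT, 1.36 for WWD and 1.35 for R, all with intervals over regions that included 1. The 72 empty regions beside an H3K4me1 region had the highest WWD signal, at 0.933 against 0.536 at marked regions there (ratio 1.74, over regions 1.13 to 2.68). In R the direction was the other one, with a signal of 0.121 at these empty regions and 0.218 at marked regions there. That ratio was 0.554 (0.342 to 0.854), and its interval over regions included 1 (0.177 to 1.74). R reads were present at 8.33% of these empty regions (3.12 to 17.3) and at 10.99% of the marked ones. The WT ratio there was 1.53, with an interval over regions that included 1 (0.741 to 3.16).

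Empty regions were found on all 19 autosomes and on chromosome X. They made up 2.81% of the listed regions of chromosome 11 (2.20 to 3.52) and 5.84% of those of chromosome 15 (4.66 to 7.22), the lowest and highest autosomes. On chromosome X they numbered 24 of 1012, or 2.37% (1.53 to 3.51). The share of empty regions with a WT read exceeded that of marked regions on 19 of 19 autosomes. It did so on 15 of 19 in R and on 14 of 19 in WWD. WWD reads were present at more empty regions than WT reads on 19 of 19 autosomes. The WWD share was lowest on chromosome 13, at 11.5%, and highest on chromosome 9, at 47.3%. WWD over WT, taken from the shares with a read, was higher at marked than at empty regions on 16 of 19 autosomes, and R over WT on 13 of 19. By mean signal these last counts were 15 and 16. By mean signal, too, WT was higher at empty than at marked regions on 18 autosomes, and WWD exceeded WT at empty regions on 17. On chromosome X, reads were present at 8.33% (WT), 4.17% (WWD) and 0% (R) of empty regions. The shares of marked regions there were 3.69%, 13.7% and 5.41%. With 36 to 106 empty regions per autosome, single chromosomes were thinly covered.

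**Figure D5:**
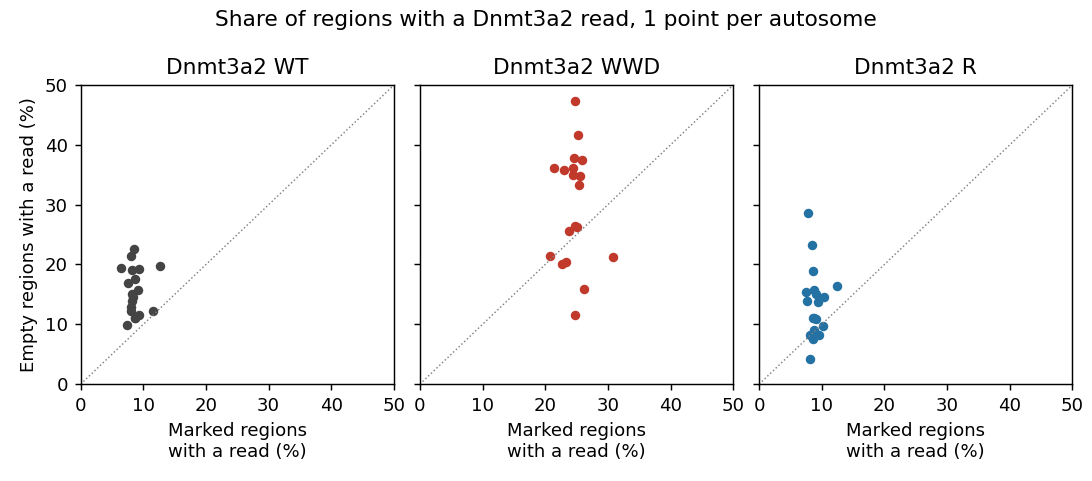
Share of empty regions with a Dnmt3a2 read (vertical axis, percent) against that of marked regions (horizontal axis, percent), 1 point per autosome and 1 panel per construct; the dotted line marks equal shares. In WT all 19 points lie above the line, in R 15 and in WWD 14. The shares of empty regions vary more between chromosomes than those of marked regions. With only 36 to 106 empty regions per autosome they also carry more counting error, and the difference in spread was not tested.

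No Dnmt3a2 read of any construct was present at 728 empty regions, or 55.9% (53.1 to 58.6), against 61.9% of the table. A read in WWD and none in WT was found at 295, or 22.6% (20.4 to 25.0), close to the 22.3% of the table. A read in WT and none in WWD was found at 118, or 9.06% (7.55 to 10.7), above the 6.74% of the table. A read in WT and none in R was found at 164, or 12.6% (10.8 to 14.5), against 8.66% of the table, and a read in R and none in WT at 134, or 10.3% (8.69 to 12.1), against 8.56%. Of these 4 patterns, only the interval for a read in WWD and none in WT included the share of the table. These shares rise with the share of regions that a construct read at all, which for WT was 15.1% of empty regions and 9.89% of the table. They do not show that WT reads stood alone more often. Among regions with a WT read, a WWD read was present at 40.1% of empty and 29.9% of marked ones, and an R read at 16.8% and 10.9%.

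All 3 constructs had a read at 16 empty regions, or 1.23% (0.703 to 1.99), against 0.468% of the table. Of the 197 empty regions with a WT read, 40.1% (33.2 to 47.3) also held a WWD read, while 26.7% of those without a WT read did (24.1 to 29.4). At marked regions these shares were 29.9% and 23.8%. Of the 167 with an R read, 19.8% also held a WT read, which was 16.8% of those with a WT read. Of those with an R read, 40.1% held a WWD read (32.6 to 48.0), against 27.02% of those without (24.5 to 29.7). WWD reads thus fell more often on empty regions that another construct had read. For R and WT the intervals with and without the other's read overlapped (14.0 to 26.6 and 12.4 to 16.6 for WT reads). Only 33 empty regions held both an R and a WT read, so this overlap does not set R and WT apart from WWD. At marked regions a WT read was present at 10.6% of those with an R read (9.37 to 11.97) and 8.48% of those without (8.12 to 8.85). A WWD read was present at 29.8% and 23.8% of them. Sequence features of the regions were not analysed here.

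Single empty regions held up to 23 (WT), 21 (WWD) and 21 (R) Dnmt3a2 reads. They are named by position in mm9, and the genes at these positions were not analysed here. The region with most WT reads, chromosome 12, 85599675 to 85599774, had 23 WT, 3 WWD and 0 R reads, and lay 26227 bp from the nearest marked region. Chromosome 2, 10285016 to 10285115, had 19 WT, 2 WWD and 0 R reads, 1597 bp from a marked region. Chromosome 2, 49716592 to 49716691, had 18 WT reads and 0 in WWD and R, and lay 4 bp from an H3K4me2 region. With the libraries at 0 set to a floor of 3 reads, WT was there 4.31-fold higher than WWD and 6.31-fold higher than R. These folds are not lower limits, since they make no allowance for the counting error of the 18 WT reads (10.7 to 28.4). These regions were chosen for their WT reads, so the order of the constructs at them is not a finding.

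WWD and R each had such regions of their own. Chromosome 11, 60923726 to 60923825, had 21 WWD reads and 0 in WT and R, and lay 64330 bp from the nearest marked region. WWD was there 9.74-fold higher than WT with WT set to the floor. Chromosome 10, 116410168 to 116410267, had 17 WWD, 0 WT and 3 R reads. Chromosome 12, 4194972 to 4195071, had 13 WWD reads and 0 in WT and R, and lay 43 bp from an H3K4me1 region and 242 bp from an H3K4me2 region. The region with most R reads, chromosome 2, 168514750 to 168514849, had 21 R, 9 WWD and 0 WT reads. R was there 6.66-fold higher than WT with WT set to the floor. Chromosome 16, 32836535 to 32836634, and chromosome 5, 134913542 to 134913641, each had 14 R reads and 0 in WT and WWD. These regions too were picked as the largest values or differences of their library, and their order and folds make no allowance for that choice. The folds also make no allowance for the counting error of the higher count.

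A single empty region, or 0.077% of them, held at least 5 reads in all 3 libraries, against 5 marked regions, or 0.020%. These counts are too small to compare. The empty region lay on chromosome 15, 82874506 to 82874605, with 6 WT, 7 WWD and 13 R reads. It was 435 bp from another region of the H3K4me3 table and 12421 bp from a marked one. Chromosome 16, 76112303 to 76112402, the most isolated of the named regions, had 10 WT, 0 WWD and 15 R reads and no region of any table within 180652 bp. Chromosome 1, 183782979 to 183783078, 37 bp from an H3K4me2 region, had 16 R, 3 WT and 1 WWD reads.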

How the data were processed

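The submitters' processing notes name the aligner Bowtie and the genome build mm9; the sources used here do not say how regions were called. The authors deposited log2 values per 100 bp region, scaled by a factor (effective total over library total) given in each column header. By their values these are log2(1 + factor × (reads + a random part of a read)), rounded to 2 decimals. Solving this for reads and rounding down gave whole reads. The step was tested on values simulated with this same form, which cannot show whether the deposited values have it. H3K4me3 columns matched 1 sample each and Dnmt3a2 columns a construct only; 2 columns of no listed sample were not used. Ratios have exact conditional binomial intervals, and factors between marked and empty regions have approximate intervals from the read counts on the log scale. Intervals over regions come from the variance between regions on the log scale. Distances run between region edges. Named regions were the 5 with the most reads per Dnmt3a2 column, those with at least 5 reads in all 3, and the 5 largest differences from WT each way; examples are printed. The regions, rules and comparisons were chosen with earlier results of these data known. The intervals over regions, ratios of shares, WWD over R, overlaps of constructs and neighbours' states were added after the values were seen. Computations ran in Python 3.11.15 with scipy 1.17.1, pandas 2.3.3 and numpy 2.4.6.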

Additional observations from a re-analysis of the deposited data

How the results depend on the processing

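For 14 results, 63 of 85 alternative values lay inside the main value's 95% interval and 22 outside it. None of the ratios turned direction, and shares have no direction to turn. Some of the 63 were fixed in advance. Library scaling cancels in the empty to marked ratios and the marked to empty factors. A cap on the reads of a region cannot change a share with a read. No paired analysis was possible because a construct had only 1 Dnmt3a2 column, and so no library could be left out. Regions with a read in at least 2 Dnmt3a2 columns gave an empty to marked ratio of 1.30 for WT, 1.09 for WWD (0.990 to 1.20) and 1.002 for R (0.906 to 1.11), so that the intervals of WWD and R included 1, a WWD to WT ratio of 1.43 and a WWD to R ratio of 1.59 at empty regions, and a marked to empty factor for WWD over WT of 1.19; by its construction this leaves out regions read in 1 library. Regions with no neighbour within 500 bp gave 1.70 for WT, 1.11 for WWD and 1.34 for R. Deposited values without recovering whole reads, which add a random amount to each region, gave 1.38 for WT, 1.19 for WWD and 1.22 for R, ratios of 1.77 (WWD to WT) and 1.95 (WWD to R), and marked to empty factors of 1.16 for WWD and 1.13 for R. Scaling to the reads within the 3 tables put WWD over WT at 1.01 (0.927 to 1.10, which includes 1) and WWD over R at 1.12; the cause was not tested. All alternatives for WWD over R were added after seeing the data. Within 2000 bp the shares with an H3K4me1, H3K4me2 and H3K4me3 neighbour were 15.8%, 23.4% and 28.3%. With at most 1 H3K4me3 read per column, which made 1588 regions empty, the H3K4me2 share was 17.0%. Leaving out the 51 regions near the limit of 1 read, chosen after seeing the data, moved no result out of its interval. Most empty regions held 0 reads in each Dnmt3a2 library, so single regions carry little information.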

Other observations

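The H3K4me2 regions beside empty regions had Dnmt3a2 reads at shares whose intervals included those of H3K4me2 regions away from H3K4me3 regions. Of 194 empty regions with an H3K4me2 region within 500 bp, that neighbour had a WT read for 41, or 21.1% (15.6 to 27.6). The share was 16.1% over the whole H3K4me2 table and 20.03% over its regions with no H3K4me3 region nearby, and the interval includes both. In R the share was 20.1% (14.7 to 26.4), against 15.5% and 18.6%, and in WWD 29.4% (23.1 to 36.3), against 29.5% and 33.3%. The H3K4me2 neighbours of 12933 marked regions had lower shares in WT, 10.9% (10.3 to 11.4), and in R, 11.2% (10.7 to 11.8). In WWD their share was 24.2% (23.5 to 25.0), an interval that overlapped. An H3K4me2 region nearest to several regions was counted for each of them, which these intervals do not allow for.

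The H3K4me1 neighbours of 72 empty regions did not have higher shares than those of marked regions in every construct. Neighbours shared by several regions were counted for each here too. In WT they had a read for 30.6% (20.2 to 42.5), against 15.8% of the H3K4me1 neighbours of marked regions (12.9 to 19.1). In WWD the shares were 25.0% (15.5 to 36.6) and 34.2% (30.3 to 38.3), and in R 11.1% (4.92 to 20.7) and 15.1% (12.2 to 18.3), both with intervals that overlapped.

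For each construct, the share of H3K4me2 neighbours with a read had overlapping intervals whether or not the empty region itself had one. The shares with and without were 6.90% (0.846 to 22.8) and 23.6% (17.4 to 30.9) in WT, 27.6% (16.7 to 40.9) and 30.1% (22.6 to 38.6) in WWD, and 37.0% (19.4 to 57.6) and 17.4% (11.9 to 24.0) in R. The first of each rests on few pairs, 2 of 29 in WT, 16 of 58 in WWD and 10 of 27 in R. The pairs were looked at after other values had been seen.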
